A study of Rattus norvegicus with 12 samples.

Results

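Transcripts of the enzymes that make, sense and degrade cyclic AMP (cAMP) were compared between trained and untrained rat hearts. Chosen by gene symbol, the set was 2 adenylyl cyclases (Adcy5, Adcy6), 3 subunits of the cAMP-dependent protein kinase PKA (Prkaca, Prkar1a, Prkar2a) and 5 phosphodiesterases (Pde3a, Pde3b, Pde4a, Pde4b, Pde4d). All 10 genes were on the array, out of 4736 named there by 1 symbol. Every probe set annotated to exactly 1 of them was taken, which gave 18 of the 8740 probe sets. The study measured total RNA of the left ventricle on single-channel arrays, with 6 arrays from exercised rats (labels 1, 4, 5, 7, 8 and 9) and 6 from sedentary rats (labels 13, 16, 17, 21, 23 and 24). The exercised animals had run on a treadmill for 7 weeks, in a study of heart growth under exercise. The labels used here give no strain, sex, age or interval since the last run. They do not state whether the numbered samples came from different animals; the p-values then measure only the spread between samples, part of which may be technical.

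In the heart muscle cell, noradrenaline and adrenaline bind beta-adrenergic receptors, and the stimulatory G protein then activates adenylyl cyclase, which turns ATP into cAMP. Adcy5 and Adcy6 are the main cyclases of the ventricular myocyte, and calcium inhibits both. cAMP releases the catalytic subunits of PKA from its regulatory subunits, and the freed kinase phosphorylates calcium channels, phospholamban and troponin I, which speeds and strengthens the beat. Phosphodiesterases of families 3 and 4 break cAMP down and keep the signal local. Inhibitors of family 3 raise contractile force, and Pde4d is anchored beside calcium release channels and beta receptors.

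None of the 9 tested genes differed between exercised and sedentary ventricles past the threshold, and Pde3b was too dim to test. The test was limma on log2(intensity + 363), with Benjamini-Hochberg adjustment over the 6555 probe sets bright enough to test and an adjusted p threshold of 0.05. Of the 18 probe sets 16 were tested, standing for 9 genes, and 0 passed, against 0.32% of all tested probe sets. At an unadjusted p under 0.05 there was 1 of 16, a Prkaca probe set, against 16.2% of all tested probe sets. Without sedentary 17, an array that stood apart, there were 3 of 16 (that probe set and Prkar1a lower, 1 Pde4b probe set higher), against 16.9% of all, and with array weights also 3, against 19.3%. The exercised and sedentary intensities overlapped on all 16, where they did not overlap on 2.07% of all tested probe sets. Differences, given as exercised minus sedentary on this log2 scale, ran from -0.13 to 0.10, with a median of -0.022 beside 0.0027 over all tested probe sets, and 10 of 16 were below 0 by sign, beside 48.6% of all. Without sedentary 17 they ran from -0.21 to 0.078, with a median of -0.0081 beside 0.0038 over all. The added 363 understates differences of dim probe sets. With 1 added in its place the members' differences ran from -0.15 to 0.14. In ratios of mean intensity, the exercised mean lay between 90.4% of the sedentary mean (Prkar1a) and 110% of it (1 probe set of Pde4b).

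**Figure D1:**
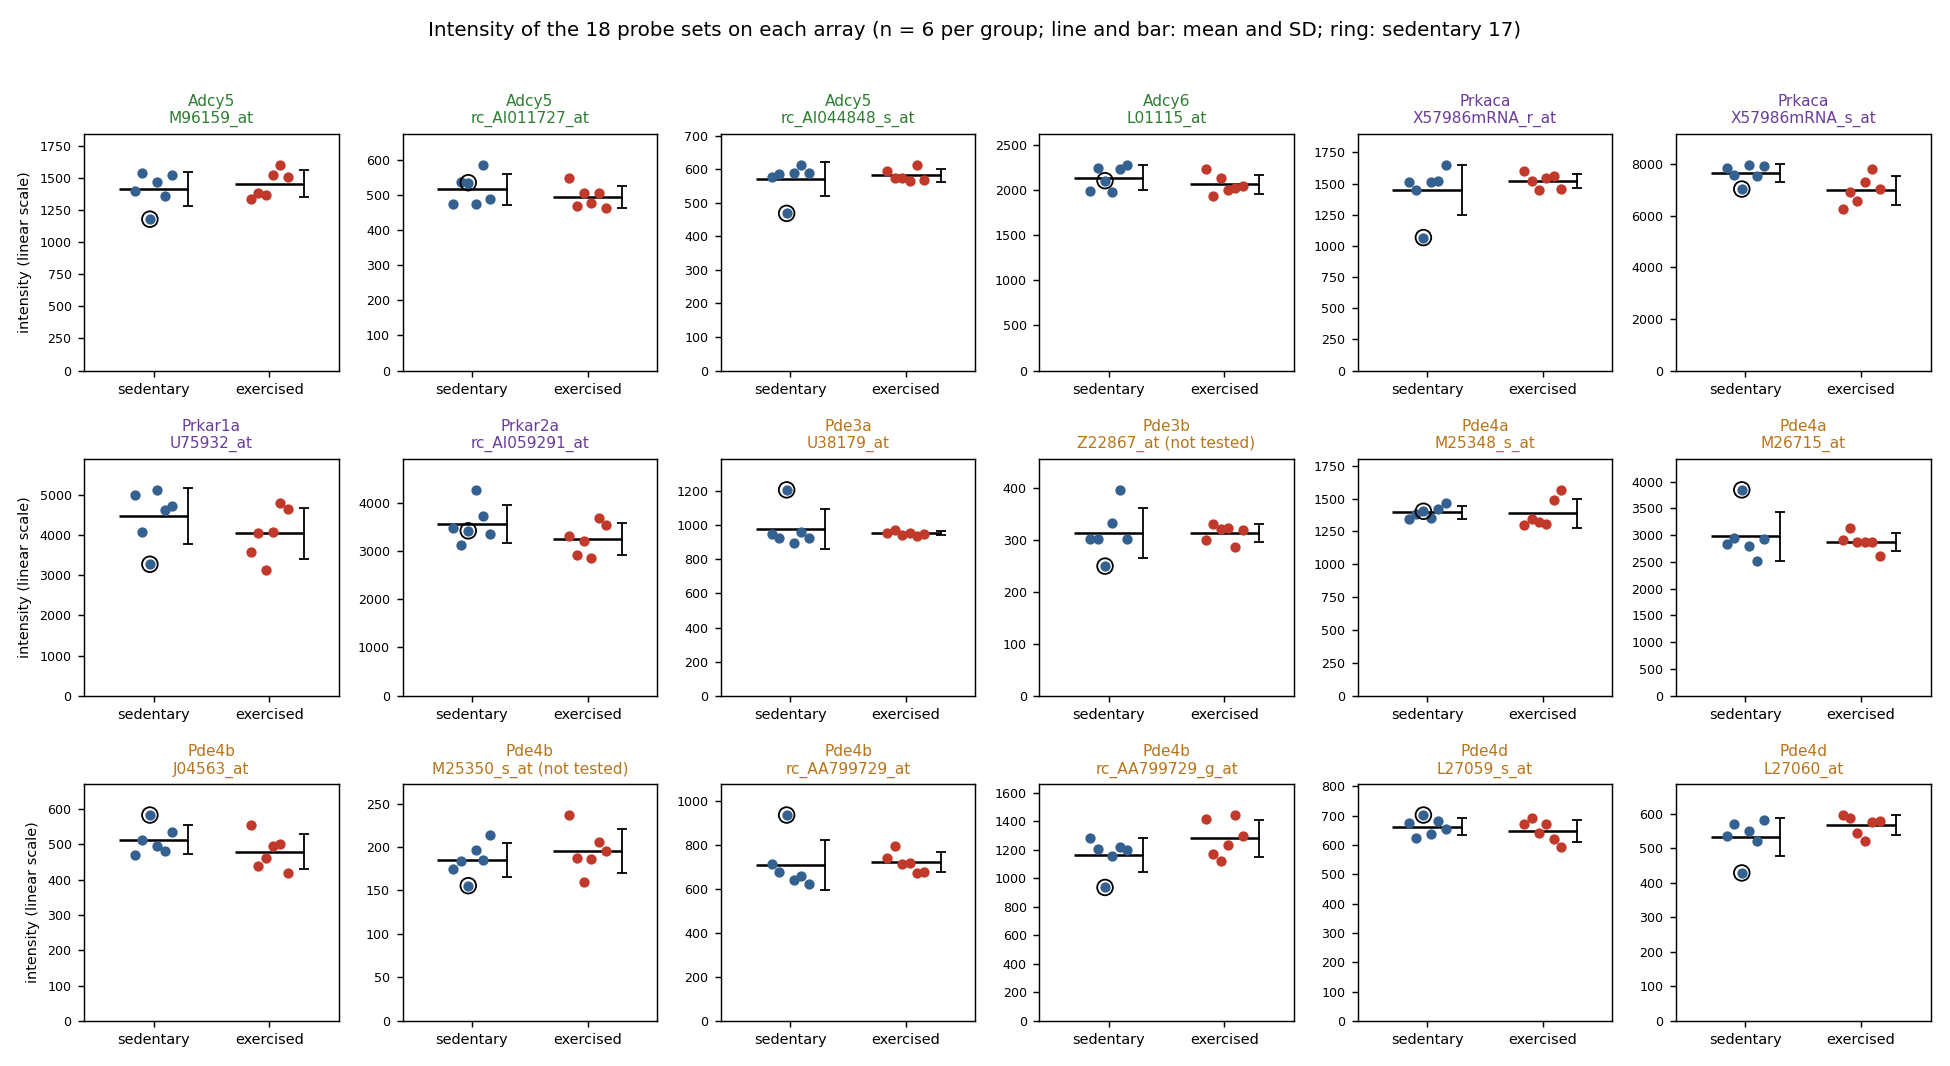
Intensity on a linear scale from 0 for each of the 18 probe sets on every array, with 6 sedentary (blue) and 6 exercised (red) points, the mean as a line, the SD as a bar and sedentary 17 ringed. Titles are green for cyclases, purple for kinase subunits and orange for phosphodiesterases. The groups overlap in all 18 panels, and the ringed array is often far from the other 5 sedentary ones.

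The array of sedentary 17 stood apart on many of these probe sets. It was the lowest or the highest of the 6 sedentary arrays on 12 of the 16 tested members (75%), and likewise on 67.5% of all tested probe sets. Its deviations went both ways. It had the lowest sedentary intensity on 7 tested members and the highest on 5. Values without this array are therefore given beside the members' results. The median intensity of the 12 arrays lay between 840 and 875. The 875 was sedentary 17, and the next highest was 860 on sedentary 23. Markers of heart muscle cells were bright on every array. Summed intensities of 11 measured genes were 429202 to 460541 in exercised and 418027 to 468419 in sedentary samples, the 468419 on sedentary 17. These are bulk samples, in which fewer cells of a type and less RNA per cell cannot be told apart.

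**Figure D2:**
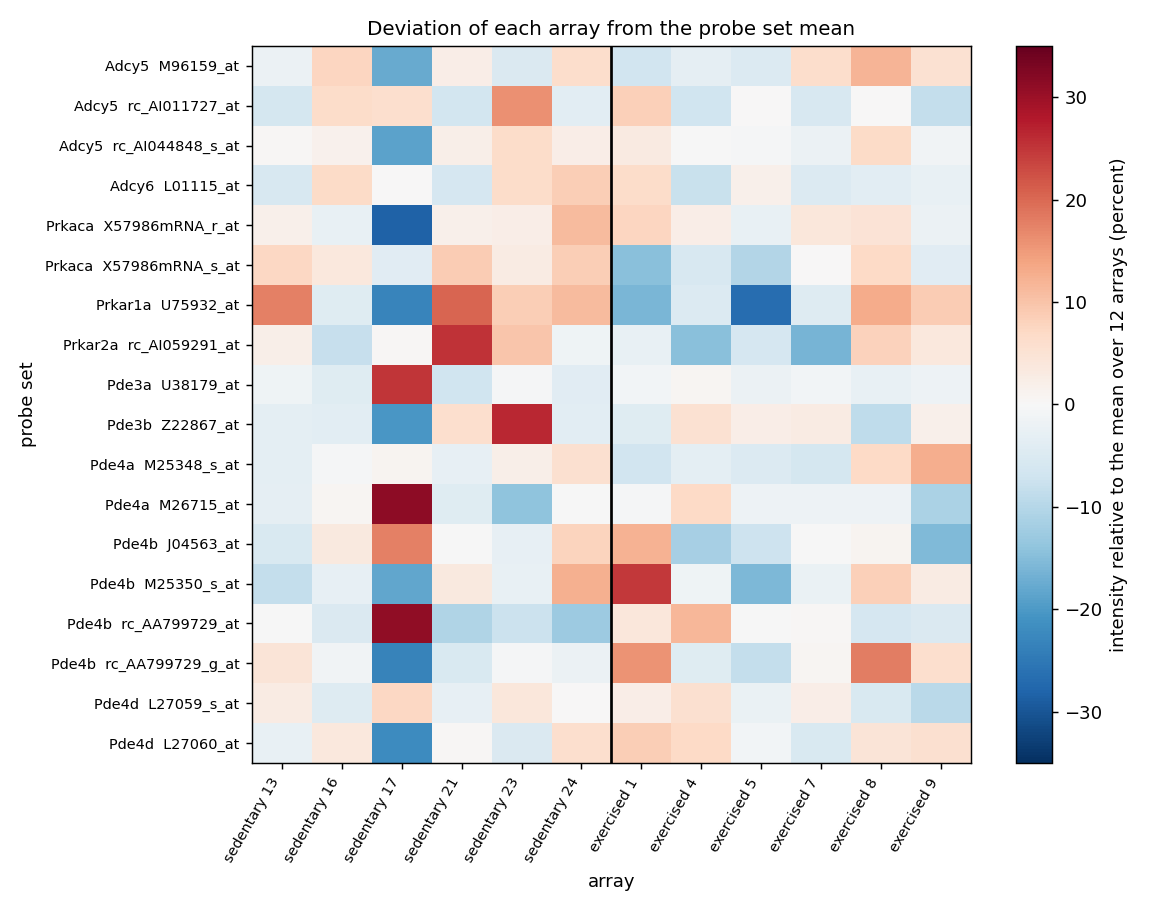
Deviation of each array's intensity from the mean over the 12 arrays, in percent, for the 18 probe sets (rows) and the 12 arrays (columns), with a black line between sedentary (left) and exercised (right). The column of sedentary 17 carries strong colours in both directions, and Prkar1a is low on sedentary 17 and exercised 5.

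The cyclases did not differ detectably. Adcy6 had intensities of 1934, 2032 and 2232 (lowest, median and highest) in exercised and 1974, 2166 and 2277 in sedentary samples. The ranges almost coincided. The means were 2059 ± 106 and 2134 ± 135 (SD, n = 6 each), a difference of -0.043 ± 0.048 (SE) with a limma adjusted p of 0.666 and a 95% interval of -0.15 to 0.060, and it was -0.047 without sedentary 17. For Adcy5, its brightest probe set M96159_at ran over 1338, 1449 and 1605 in exercised and 1180, 1435 and 1544 in sedentary samples, where the value of 1180 was sedentary 17. Its difference was 0.035 ± 0.057 (limma adjusted p = 0.765), and -0.0050 without sedentary 17. The 2 dimmer Adcy5 probe sets gave -0.034 ± 0.039 and 0.019 ± 0.039 (limma adjusted p = 0.680 and 0.824), the first -0.027 without that array. The second of these, rc_AI044848_s_at, read 468 on sedentary 17, where the other sedentary values were 578 to 612, and it gave -0.014 without that array. Of the 4 cyclase probe sets 2 were higher and 2 lower by sign, and their 95% intervals together reached from -0.15 to 0.16.

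Of the 4 kinase subunit probe sets 3 were lower and 1 higher by sign in exercised hearts, and none passed the test. Prkaca encodes the catalytic subunit alpha, which transfers the phosphate. On its brighter probe set X57986mRNA_s_at it had intensities of 6257, 6976 and 7833 in exercised and 7039, 7726 and 7984 in sedentary samples. Of the 6 exercised samples, 5 lay below the sedentary mean, and exercised 8 at 7833 lay among the high sedentary values. The means were 6990 ± 555 and 7660 ± 356 (SD, n = 6 each), a difference of -0.13 ± 0.058 (SE), with a limma adjusted p of 0.286 and a 95% interval of -0.25 to -0.0045 before adjustment. The exact two-sided permutation test of the same difference gave p = 0.0346, and 0.247 after adjustment over all tested probe sets. Without sedentary 17 the difference was -0.15 ± 0.058 (limma adjusted p = 0.204), and under quantile normalization -0.18 ± 0.050 (0.121). Under median scaling it was -0.12, and without exercised 1 it was -0.098 (limma adjusted p = 0.355 and 0.422). In these fits 0 of the 16 tested members had an unadjusted p under 0.05, against 16.3% and 15.5% of all tested probe sets. The count was also 0 with exercised 4, 5 or 9 left out singly, or sedentary 13, 16, 21, 23 or 24. In those fits 12.8% to 19% of all tested probe sets were under 0.05. With 1 array left out, this Prkaca probe set stayed under 0.05 in limma only without exercised 7, exercised 8 or sedentary 17.

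The other Prkaca probe set, drawn from the same transcript record, did not repeat this. X57986mRNA_r_at had 1448, 1532 and 1598 in exercised and 1067, 1514 and 1652 in sedentary samples, with the 1067 on sedentary 17 and the other 5 sedentary arrays at 1446 or above. Its difference was 0.061 ± 0.068 (limma adjusted p = 0.665), and -0.0060 ± 0.038 without sedentary 17. In the array maker's naming, the suffix s marks a probe set that can match more than 1 transcript and r one for which a design rule was dropped. Which of them follows Prkaca more closely was not tested.

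Prkar1a encodes regulatory subunit I alpha, which holds the catalytic subunit inactive and whose loss in people causes Carney complex, with heart myxomas. It had intensities of 3119, 4064 and 4809 in exercised and 3273, 4678 and 5126 in sedentary samples. Exercised 5 (3119) and sedentary 17 (3273) were the lowest arrays of their groups. The means were 4045 ± 634 and 4475 ± 692 (SD, n = 6 each), a difference of -0.13 ± 0.11 (SE, limma adjusted p = 0.563) with a 95% interval of -0.37 to 0.11, the widest among the members. Leaving out sedentary 17 moved it to -0.21 ± 0.096 (limma adjusted p = 0.280), and leaving out exercised 5 moved it to -0.068, so its size rested on single arrays in either direction.

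Prkar2a encodes regulatory subunit II alpha, the form that anchoring proteins tether near membranes and channels. It had intensities of 2854, 3259 and 3682 in exercised and 3129, 3446 and 4266 in sedentary samples, and 5 of 6 exercised samples lay below the sedentary mean. The high value of 4266 was sedentary 21. The difference was -0.12 ± 0.076 (limma adjusted p = 0.446), with -0.071 without sedentary 21 and -0.13 without sedentary 17. Over the 4 kinase probe sets the median difference was -0.12, with 3 lower and 1 higher by sign. Without sedentary 17 all 4 were lower by sign, though the Prkaca r probe set was at -0.0060, and none passed (lowest limma adjusted p among the members 0.204).

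**Figure D3:**
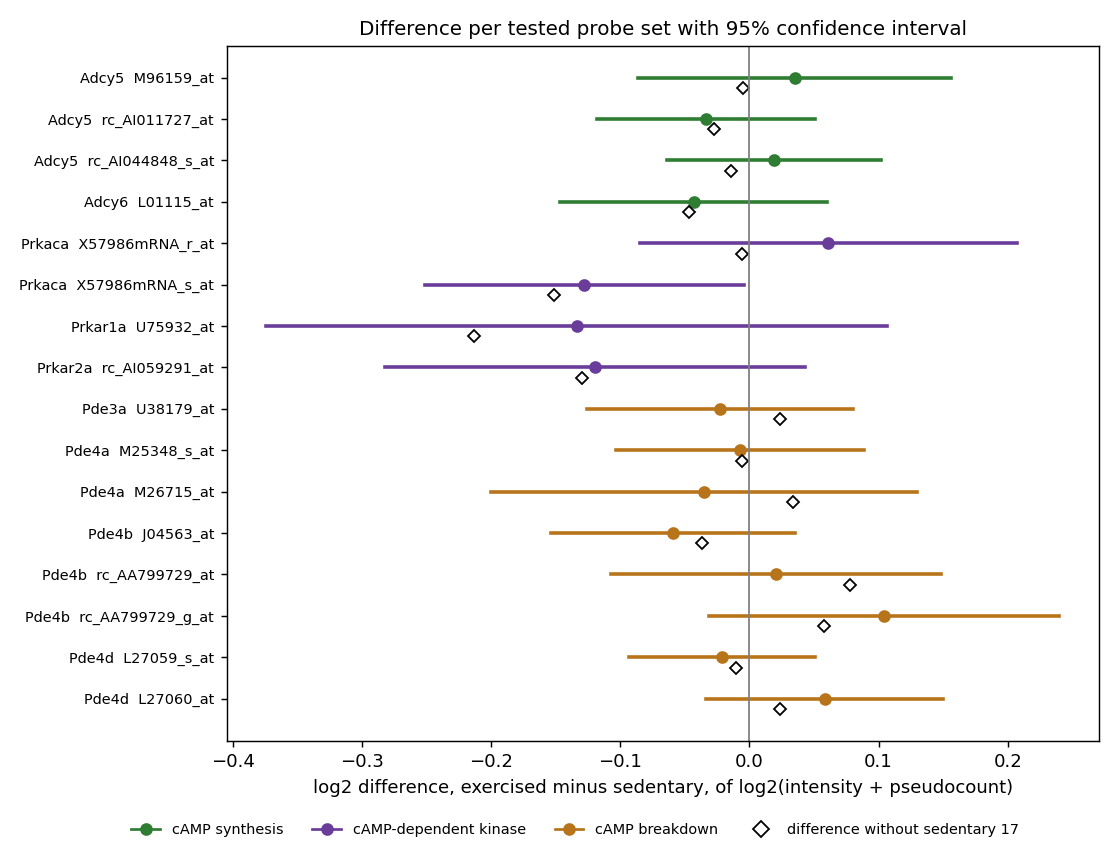
Log2 difference, exercised minus sedentary, for the 16 tested probe sets (circles) with the 95% confidence interval of limma before adjustment (lines), and the difference without sedentary 17 (diamonds). All intervals but that of the brighter Prkaca probe set (-0.25 to -0.0045) include 0, and Prkar1a, Prkar2a and that probe set lie near -0.13 to -0.12.

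Among the phosphodiesterases, Pde3a, the cGMP-inhibited form of heart and vessel muscle, had the tightest exercised values of the set. It ran over 940, 953 and 974 in exercised and 898, 939 and 1208 in sedentary samples, with the 1208 on sedentary 17 and the other 5 between 898 and 961. The difference was -0.023 ± 0.048 (limma adjusted p = 0.830), and 0.024 ± 0.025 without sedentary 17, so its sign rested on that array. Pde3b, the form known from fat and liver cells, was below the intensity required for testing (a mean over the 12 arrays of 434). It had 286, 321 and 331 in exercised and 250, 303 and 397 in sedentary samples, with overlapping ranges and means of 314 ± 16.8 and 315 ± 48.4 (SD, n = 6 each).

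The family 4 enzymes are specific for cAMP. Pde4a had 2603, 2877 and 3128 in exercised and 2513, 2879 and 3848 in sedentary samples on its brighter probe set M26715_at. The medians were nearly the same, and the 3848 was sedentary 17. The difference was -0.035 ± 0.077 (limma adjusted p = 0.837), and 0.034 without that array. Its second probe set M25348_s_at gave -0.0075 ± 0.045 (0.947), and -0.0059 without it.

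Pde4b, a form induced by cAMP in many cells, had the largest positive difference of the set on the probe set rc_AA799729_g_at. Its intensities were 1122, 1263 and 1443 in exercised and 935, 1202 and 1279 in sedentary samples, with 5 of 6 exercised samples above the sedentary mean. The low 935 was sedentary 17. The difference was 0.10 ± 0.063 (limma adjusted p = 0.423, 95% interval -0.031 to 0.24) and 0.058 ± 0.051 without sedentary 17. The companion probe set from the same expressed sequence tag, rc_AA799729_at, behaved in the opposite way on that array. It read 937 on sedentary 17 and 625 to 714 elsewhere in that group, and its difference was 0.021 ± 0.060 with all arrays and 0.078 ± 0.034 without this one (limma adjusted p = 0.878 and 0.271). The third tested Pde4b probe set, J04563_at, gave -0.059 ± 0.044 (0.514), and -0.037 without sedentary 17. The fourth, M25350_s_at, was too dim to test, with means of 195 ± 25.4 in exercised and 185 ± 19.7 in sedentary samples.

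Pde4d gave 0.058 ± 0.043 on L27060_at and -0.021 ± 0.034 on L27059_s_at (limma adjusted p = 0.506 and 0.764). L27060_at ran over 520, 577 and 596 in exercised and 428, 543 and 581 in sedentary samples, the 428 being sedentary 17, without which the difference was 0.024, and that of L27059_s_at -0.010. By sign, 3 of the 8 tested phosphodiesterase probe sets were higher and 5 lower. Their median was -0.014, with differences of -0.059 to 0.10. Transcripts of family 4 resemble each other, and its probe sets can share signal.

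Synthesis and breakdown were set against each other on each array as the mean of the 4 cyclase probe sets minus the mean of the 8 tested phosphodiesterase probe sets, each centred on its mean over the 12 arrays. This is a description without a test, since the members were chosen with results of these data known. The balance was -0.0052 ± 0.033 in exercised and 0.0052 ± 0.090 in sedentary samples (SD, n = 6 each), a difference of -0.010, which is smaller than either SD. The exercised arrays lay between -0.066 (exercised 4) and 0.026 (exercised 5). Sedentary 17 was at -0.16, with a low cyclase mean and a high phosphodiesterase mean, and the other 5 sedentary arrays lay between -0.026 and 0.085. Single probe sets did not all follow these means. Pde4b rc_AA799729_g_at (935) and Pde4d L27060_at (428) were at their lowest sedentary values on this array. Without sedentary 17 the difference was -0.044, which is larger in size than the exercised SD of 0.033. With only the brightest probe set of each gene it was -0.010.

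**Figure D4:**
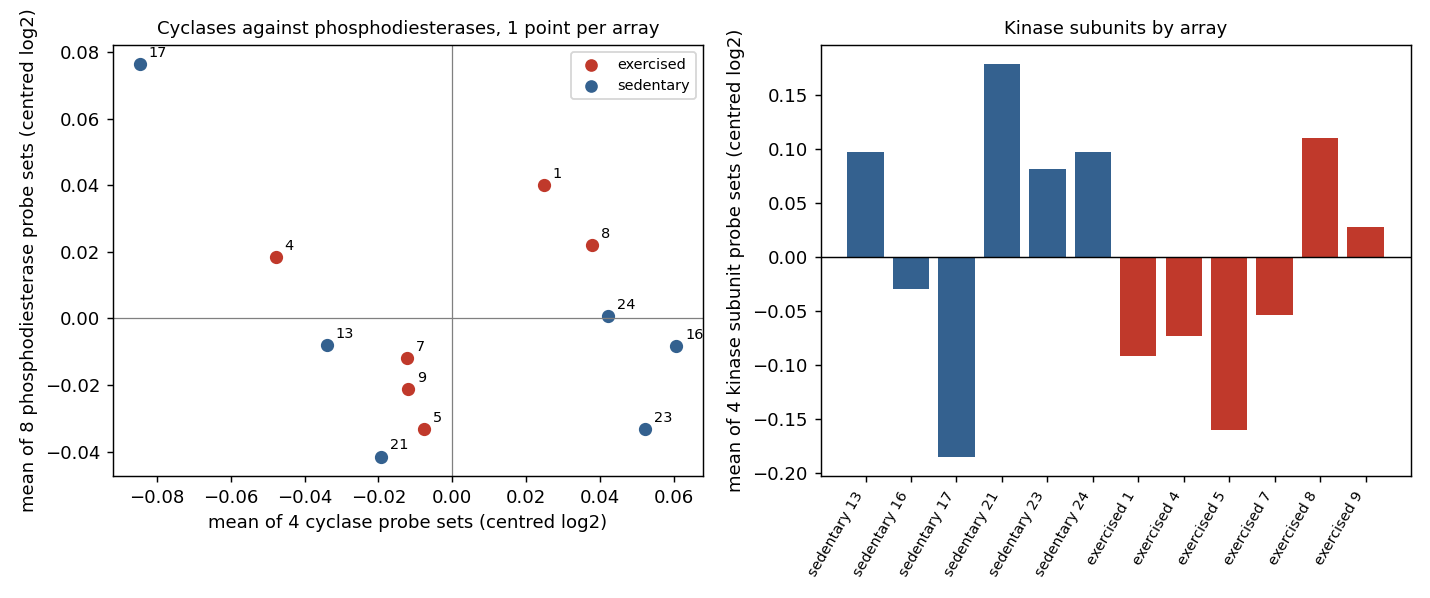
Left, the mean of 4 cyclase against the mean of 8 phosphodiesterase probe sets, as centred log2 values, 1 point per array, labelled by sample number. Right, the mean of the 4 kinase subunit probe sets per array in the same unit; the exercised (red) and sedentary (blue) points mix, and sedentary 17 lies alone at -0.085 and 0.076 in the left panel.

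The mean of the 4 kinase probe sets, in the same centred unit, was -0.040 ± 0.095 in exercised and 0.040 ± 0.13 in sedentary samples (SD, n = 6 each), a difference of -0.080. Without sedentary 17 the sedentary mean was 0.085 and the difference -0.12. The exercised arrays ran from -0.16 (exercised 5) to 0.11 (exercised 8). Sedentary 17 was lowest at -0.18, while the other 5 sedentary arrays ran from -0.030 to 0.18, so the groups overlapped with or without it. Summed levels of markers of other cells are given beside these values. The summed intensity of 4 measured erythroid markers, of 7 listed, was between 15178 and 40158 in exercised and between 39072 and 44862 in sedentary samples. That of 9 measured fibroblast markers, of 10 listed, was between 36492 and 56139 and between 31230 and 40447. For 5 measured smooth muscle markers, of 9 listed, the ranges were 19874 to 25152 and 17952 to 20678, and for 8 measured macrophage and leukocyte markers, of 12 listed, 20309 to 26183 and 19211 to 20961. These ranges overlapped for all 4 lists, and the only gene of them that passed the test was the myeloid lysozyme Lyz2, which was higher (log2 difference 0.997, limma adjusted p = 0.0404). Median differences of these lists were -0.19 (erythroid), 0.18 (fibroblast), 0.17 (smooth muscle) and -0.026 (macrophage and leukocyte). Of the 8 macrophage and leukocyte genes 3 were higher and 5 lower by sign, so their sum does not stand for most of them. Their sedentary high of 20961 was sedentary 17. The other 3 lists were more one-sided, with 5 higher and 0 lower (smooth muscle), 8 and 1 (fibroblast) and 0 and 4 (erythroid). At an unadjusted p under 0.05 in limma were 3, 2 and 2 of these genes, against 16.1% of all tested genes. The summed ranges also overlapped for endothelial markers (7435 to 8103 in exercised, 7637 to 8979 in sedentary samples) and neural markers (7193 to 8592, 6859 to 7892). They did so for adipocyte markers (44837 to 52779, 44311 to 47082) and atrial markers (24360 to 43734, 22481 to 51178). No marker of these lists was at 0 on any array, and the part of the markers in the kinase values was not tested.

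The genes around these enzymes were taken from lists of the cAMP pathway, with the brightest tested probe set standing for each gene. Of 121 listed genes 77 were on the array and 66 were tested. None passed in either direction on that probe set, against 0.413% of the 3876 genes tested. A dimmer probe set of Akip1, described below, did pass, so the count depends on which probe set stands for a gene. At an unadjusted p under 0.05 in limma, 4 were higher and 5 lower (16.1% of all tested genes in both directions), and the median difference was -0.0056 beside 0.0029 over all tested genes.

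Upstream, 0 of 17 receptor, G protein and receptor kinase genes passed. Grk2, the kinase that desensitises beta receptors, had the smallest p. On M87854_at its 6 exercised intensities, 788 to 871, all lay below its 6 sedentary ones, 888 to 1066. Groups did not overlap for 1.96% of tested genes. The difference was -0.14 ± 0.038 (limma adjusted p = 0.1001), and -0.12 without sedentary 17. The dimmer Grk2 probe set S48813_s_at was not tested and went the other way. It read 372 ± 37.1 in exercised and 354 ± 28.3 in sedentary samples (SD, n = 6 each), with overlapping ranges. Gnas, the stimulatory G protein alpha subunit that switches the cyclases on, gave 0.12 ± 0.053 on its brightest probe set (limma adjusted p = 0.273) and 0.0065 to 0.19 on its other 3. The 5 other cyclases tested gave differences of -0.058 (Adcy10, the soluble form) to 0.053 (Adcy4), with a lowest limma adjusted p of 0.422. Without sedentary 17, Adcy10 gave -0.025 and Adcy4 0.055.

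Among 3 tested genes of other PKA subunits and inhibitors, the second catalytic subunit gene, Prkacb, gave 0.081 ± 0.047 (limma adjusted p = 0.412). Without sedentary 17 Prkacb gave 0.053. Pkia, the peptide inhibitor that blocks the catalytic subunit, gave -0.099 ± 0.094 (0.611) on its brightest probe set, and -0.17 and -0.035 on the others. Of 6 tested anchoring and kinase-binding genes, Ezr, ezrin, which links membrane, actin and PKA, ran from 1710 to 2076 in exercised and 1481 to 1668 in sedentary samples. Those ranges did not overlap, and the difference was 0.19 ± 0.048 (limma adjusted p = 0.0910). Akap11, an anchor of regulatory subunits, gave -0.21 ± 0.078 (0.207).

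Akip1, a small protein that binds the PKA catalytic subunit, was singled out after its values were seen, because its probe sets split. On rc_AA799992_g_at it ran from 1382 to 2897 in exercised and 772 to 1102 in sedentary samples (difference 0.88 ± 0.13, limma adjusted p = 0.0111). On rc_AA799992_at, too dim to test, the means were 325 ± 106 and 101 ± 21.2 (SD, n = 6 each), again without overlap. The other 2 probe sets, built on a second sequence tag, gave 0.0016 and 0.0062 (limma adjusted p = 0.989 and 0.968), so a change of Akip1 was seen with one tag and not with the other.

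Of 5 tested phosphodiesterases outside the set, Pde5a, which breaks down cGMP and not cAMP, gave the smallest p. It had 1394 to 1813 in exercised and 1705 to 2283 in sedentary samples, a difference of -0.24 ± 0.067 (limma adjusted p = 0.104). Its dimmer probe set was not tested and read 336 ± 46.5 and 429 ± 60.1 (SD, n = 6 each). Pde2a, activated by cGMP, gave 0.099 ± 0.051 (0.356), and 0.056 without sedentary 17. The only other cAMP effector tested, the exchange factor Rapgef3, gave 0.032 ± 0.054 (0.776), and -0.020 without sedentary 17.

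Downstream, 0 of 20 tested PKA substrates and opposing phosphatase genes passed. The small heat shock protein Hspb6, a PKA substrate of muscle, came closest, with intensities of 23825 to 30898 in exercised and 16623 to 22885 in sedentary samples. Its difference was 0.39 ± 0.079 (limma adjusted p = 0.0542), and 0.43 (0.0853) on its second probe set, where the groups overlapped. Without sedentary 17, the lowest array on both, the differences were 0.33 and 0.39 (limma adjusted p = 0.0569 and 0.0919). Ppp2r2a, a subunit of protein phosphatase 2A, gave 0.15 ± 0.062 (0.243), and 0.094 without sedentary 17, with -0.0081 and 0.064 on its other probe sets. Of 9 tested CREB family and cAMP-induced transcripts, 1 was higher and 8 lower by sign, where 1881 of all 3876 tested genes were lower, and none passed. Their median difference was -0.045 beside 0.0029 over all tested genes. At an unadjusted p under 0.05 in limma 1 was lower, against 16.1% of all tested genes in both directions. Nr4a1, an early gene that cAMP induces, had 1886 to 2317 in exercised and 2039 to 4006 in sedentary samples, the 4006 on sedentary 17 (difference -0.42 ± 0.12, limma adjusted p = 0.103, and -0.33 without that array). Its second probe set, U17254_at, gave -0.28 ± 0.085 (limma adjusted p = 0.130), and there sedentary 17 read 1309, near the low end of its group (1281 to 2078). Without that array it gave -0.33. Nr4a2 gave -0.056 ± 0.052 (0.600).

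By similarity of log2 values over the 12 arrays, each member's nearest genes were found among all named probe sets. They are a description, since all tested named genes were searched and all share the same arrays. The values of Pde3a were most like those of Lipc (Pearson r = 0.980, Spearman rho = 0.741) and Phkg2 (r = 0.979, rho = 0.734), but r was 0.713 and 0.692 without sedentary 17. The likeness of Pde4a and Pde4b also fell without that array. Pde4a was nearest to Nr2f6 (r = 0.938, rho = 0.546) and Asnsd1 (r = 0.926, rho = 0.706), with r of 0.763 and 0.713 without it. Pde4b was nearest to Mafk (r = 0.886) and Exoc3 (r = 0.884), with r of 0.764 and 0.748 without it. For the 6 other tested members r was 0.821 or above without it. Those of Adcy5 were nearest to Mapk6 (r = 0.949) and Arhgef7 (r = 0.947), and those of Adcy6 to Gss (r = 0.930) and Id3 (r = 0.901). Prkaca was nearest to Pygb (r = 0.846) and Pdha1 (r = 0.819), Prkar1a to Ccng1 (r = 0.915) and Ciao2b (r = 0.881), and Prkar2a to Slc1a2 (r = 0.871) and Chm (r = 0.861). Pde4d was nearest to Snap25 (r = 0.933) and Fgf5 (r = 0.908). No member was among another member's 2 nearest genes.

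The genes differ in a sequence feature that the selection did not use. CREB, the transcription factor that PKA phosphorylates, binds the palindrome TGACGTCA or the shorter core TGACG. In RefSeq promoters of the rat build GRCr8, 7 of the 10 genes had an entry, with 15 promoters in all, since Pde4a, Pde4b and Pde4d have several starts. In the 250 bases before each start, 0 of 15 promoters held the palindrome, against 1.59% of all 33469 promoters. The core, on either strand and counted also within a palindrome, was in 5 of 15, against 18.2% of all. These were in Prkaca, Pde4a and Pde4d, and for each the match nearest to a start is shown to display the feature, 5′ to 3′ along the gene's strand, with the core in capitals (CGTCA where it lies on the opposite strand).
Prkaca, chr19:41083251-41083280, minus strand: ggactgcgggggCGTCAcggacagaggact
Pde4a, chr8:27966957-27966986, plus strand: ccgccccagcgtcggcgcaTGACGttcgtc
Pde4d, chr2:42767586-42767615, plus strand: ggaaaatattaaTGACGgaagagctgcaaa
The first base of these matches lay 79, 11 and 19 bases before the start. A match is only a stretch of letters, and none of the 3 genes carrying it passed the test above. Adcy6, Prkar2a and Pde3b were not matched.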

How the data were processed

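The deposited table held an intensity per probe set on a linear scale for 12 single-channel arrays, as processed by the authors. The array software, background correction and scaling are not given in the sources. Scaling was kept as deposited, so a change in total RNA would not be seen. Genes were named by the platform annotation (7006 of 8740 probe sets named 1 gene), and all 18 member probe sets had the same symbol in RefSeq by Entrez ID. Probe sets of a gene were not averaged.

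Values were tested as log2(intensity + 363), where 363 is the 20th percentile of all values. Probe sets with a mean over the 12 arrays above the 25th percentile of those means (434) were kept, 6555 in all. The test was limma 3.58.1 in R 4.3.3 (lmFit, eBayes with a mean-variance trend, two-sided, Benjamini-Hochberg over all 6555). Standard errors and 95% intervals are limma's. Permutation tests enumerated all splits of 6 against 6, with a smallest p of 0.00216. The code was tested on simulated data.

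The members and lists were chosen with earlier results of these data known. Named were all members, per pathway list the genes past the threshold or else the 2 of smallest p, and for each member the 2 genes of highest Pearson r. Akip1 falls outside this rule. Alternatives were other pseudocounts, filters, scalings, variance settings, array weights, thresholds, the permutation test and leaving out arrays.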

Additional observations from a re-analysis of the deposited data

Results flagged for a closer look

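In 44 groups of 6 values (18 probe sets and 4 array means, each in both groups), 8 had 1 array whose gap to its nearest neighbour as a share of the group's range exceeded Dixon's 95% critical value, and all 8 were sedentary 17. Chance gives about 1 in 20 groups, and the groups share arrays. On rc_AI044848_s_at of Adcy5 it read 468 against 578 to 612 on the rest of its group. On X57986mRNA_r_at of Prkaca it read 1067 against 1446 to 1652. On U38179_at of Pde3a it read 1208 against 898 to 961, and on M26715_at of Pde4a 3848 against 2513 to 2946. The 2 probe sets of Pde4b on 1 sequence tag parted, with 937 against 625 to 714 on rc_AA799729_at and 935 against 1159 to 1279 on rc_AA799729_g_at. On L27060_at of Pde4d it read 428 against 522 to 581. The centred log2 mean of the phosphodiesterase probe sets was 0.076 on this array, against -0.042 to 0.00060 on the others.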

How the results depend on the processing

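The number of member probe sets past the threshold was 0 under every alternative run, including an adjusted p of 0.10, the exact permutation test (1 at an unadjusted p under 0.05; it called 0 of all 6555 probe sets, so it bears little on stability) and each array left out. The other pathway genes went from 0 to 1 with the 50th percentile filter and with eBayes without trend (Hspb6 both times), to 2 with array weights (Hspb6 and Grk2), to 2 at a threshold of 0.10 (Hspb6 and Ezr), and between 0 and 1 with an array left out (1 without sedentary 13, Hspb6). Under these settings the calls over all probe sets also rose, from 0.32% to 1.14%, 0.641%, 2.44%, 2.2% and, without sedentary 13, 0.564%. The cyclase minus phosphodiesterase difference moved by less than the pooled SD within groups (0.068) under every alternative, though sedentary 17 itself enters that SD. Its largest moves, from -0.010 to -0.045 with array weights and to -0.044 without sedentary 17, exceeded the SD of the exercised arrays alone (0.033). With an array left out it ran from -0.044 to 0.0056 (without sedentary 23).

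Of 218 member values under alternatives other than 1 array left out, 11 changed sign, all with adjusted p above the threshold before and after. With array weights these were Adcy5 M96159_at (-0.025) and rc_AI044848_s_at (-0.012), Pde3a (0.025), Pde4a M26715_at (0.023) and Pde4d L27059_s_at (0.0056). With sedentary 16 and 17 both left out (chosen after seeing the data) they were Adcy5 rc_AI044848_s_at (-0.016), Pde3a (0.021), Pde4a M26715_at (0.050) and Prkaca X57986mRNA_r_at (-0.022). With exercised 4 and 5 both left out (likewise chosen) they were Pde4a M25348_s_at (0.014) and Pde4b rc_AA799729_at (-0.0023). With 1 array left out 10 of 192 values changed sign. The ranges of those probe sets were -0.0050 to 0.056 for Adcy5 M96159_at, -0.014 to 0.032 for rc_AI044848_s_at, -0.040 to 0.024 for Pde3a, -0.076 to 0.034 for Pde4a M26715_at, -0.036 to 0.0071 for Pde4a M25348_s_at, -0.0016 to 0.078 for Pde4b rc_AA799729_at and -0.0060 to 0.093 for Prkaca X57986mRNA_r_at. The cause of these changes was not tested.

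No paired analysis was possible because the groups share no sample numbers. The number of arrays and the dimness of 2 member probe sets limit what can be seen.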
